A study of Mus musculus with 5 samples.

Results

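L1CAM-negative spheres of P5 mice were compared with L1CAM-negative spheres of newborn mice. L1CAM is a cell adhesion protein on the surface of chromaffin cells, the catecholamine-secreting cells of the adrenal medulla. Cells of the dissociated adrenal that did not bind to an antibody against it are the L1CAM-negative fraction, a mixture that the labels call non-adrenergic. They were grown as floating spheres in serum-free medium with N2, B27, EGF, FGF and heparin. Of the 5 libraries of bulk RNA sequencing in the series, 3 are of this fraction and were chosen by their labels. The labels number them 28 (P5, 8 days in culture), 25 (a mix of P0 and P2 mice in equal parts, 8 days) and 31 (the same mix, 5 days). The other 2 libraries are of L1CAM-positive cells and do not enter the comparison. The labels give the strain C57/bl6 for every library, whereas the methods give OF-1 mice aged P1–P5 for the adrenal cultures. No source says what these numbers stand for or if each library had its own animals and culture.

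With 1 library at P5, age and library cannot be told apart. An exact permutation test of 1 library against 2 cannot give a one-sided p below 0.333, so none was used, and the comparison is descriptive. The difference between numbers 25 and 31 served as the measure of spread, and it also holds their different culture periods. Number 25 had the same culture period as the P5 library. The values are log2(FPKM + 2), where FPKM counts fragments scaled to transcript length and library size, and the lowest possible value is 1. The added 2 shrinks the differences of low genes. Read totals are not known. A gene was called higher or lower at P5 where the P5 value lay at least 1 (2-fold) beyond the nearer P0/P2 library and this gap was larger than that between numbers 25 and 31. A difference is P5 minus the mean of the P0/P2 libraries unless another pair is named, and sets of 3 values are in the order of numbers 25, 31 and 28.

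The newborn mouse adrenal has a cortex, whose cells make steroid hormones from cholesterol, a medulla of chromaffin cells and a capsule of fibroblast-like cells from which cortical cells are renewed. In the first days after birth the mouse cortex still contains the fetal or X-zone, which is lost later in life. Cortical cells obtain cholesterol by uptake of lipoproteins, through SCARB1 and other receptors, and by synthesis from acetyl-CoA through the mevalonate pathway, which SREBP2 controls.

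The P5 library stood farther from both P0/P2 libraries than these did from each other. Over 13147 mRNA genes with at least 1 FPKM in 1 of the 3 libraries, numbers 25 and 31 differed by at least 1 in 65 genes, numbers 25 and 28 in 576 and numbers 31 and 28 in 625. Pearson's r across these genes, which are not independent replicates, was 0.990 between numbers 25 and 31, 0.959 between 25 and 28 and 0.957 between 31 and 28. Of 18920 genes compared, 299 (1.58%) were called higher and 214 (1.13%) lower at P5. The genes lower numbered 410 without number 25 and 348 without number 31, and those higher 412 and 403. With 1 P0/P2 library left, these counts and all such counts below ask only for a gap of at least 1 from it. The median difference over all genes was −0.02, and the median gap between numbers 25 and 31 was 0.09. The P5 value lay above both P0/P2 values in 36.8% of the genes and below both in 40.8%.

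The 12 genes with the largest differences upwards were all short RNAs, microRNAs or small nucleolar RNAs, listed at the lowest value in both P0/P2 libraries. Of 35 microRNA genes called higher, all 35 were at the lowest value in both P0/P2 libraries, and of 12 called lower, 8 were at it in the P5 library. *Mir3098* was listed at 1.00 in numbers 25 and 31 and at 17.60 in number 28, the highest value in these libraries. Its hairpin of 87 bases lies on the plus strand (chr6:125195792-125195878, GRCm38.p6). It is shown, as RefSeq gives it, because the hairpins of the microRNAs called are as short as this (61 to 136 bases). An FPKM divides by this length.

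Mir3098: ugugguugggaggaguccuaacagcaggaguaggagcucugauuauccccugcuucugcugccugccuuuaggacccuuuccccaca

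No fold is given against a listed value of 0, and the genes described from here on are mRNA genes unless named as non-coding. Of 17057 mRNA genes, 240 (1.41%) were called higher and 186 (1.09%) lower at P5.

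**Figure D1:**
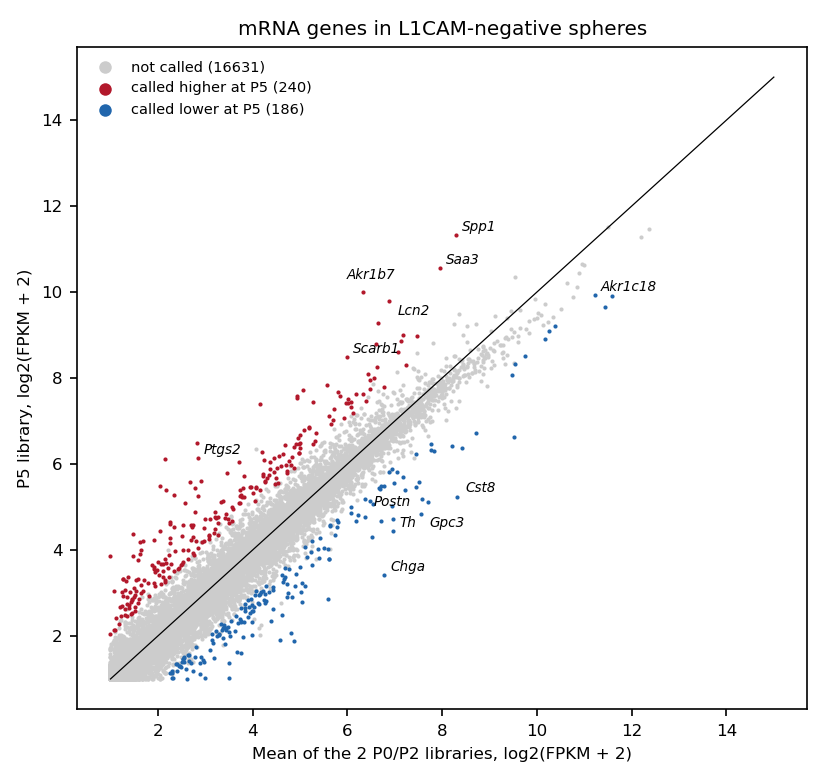
Values of 17057 mRNA genes in the P5 library (y axis) against the mean of the 2 P0/P2 libraries (x axis), both in log2(FPKM + 2), with the 240 genes called higher at P5 in red and the 186 called lower in blue. *Spp1*, *Saa3*, *Akr1b7* and *Lcn2* lie above the line of equal values, and *Chga*, *Th*, *Postn*, *Gpc3* and *Cst8* below it.

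The mRNA genes with the largest differences upwards were led by *Moxd1*. It encodes a monooxygenase-like protein related to dopamine beta-hydroxylase and was at 1.47 (number 25), 2.83 (number 31) and 6.11 (number 28). *Akr1b7* was at 66.2, 93.5 and 1023 FPKM in numbers 25, 31 and 28. The P5 library lay above both P0/P2 libraries for both genes, and *Akr1b7*, an aldo-keto reductase of the adrenal cortex, had the largest difference among the steroid genes, 3.67. *Ptgs2*, the inducible cyclooxygenase of prostaglandin synthesis, was at 2.92, 2.77 and 6.13. *Spp1*, which encodes the secreted phosphoprotein osteopontin, was at 7.99, 8.60 and 11.32. *Pyy*, the gene of the gut hormone peptide YY, was at 1.92, 2.18 and 5.50. All 3 lay at least 2.72 above the nearer P0/P2 library. *Ctla2a*, *Ifitm1*, *Il1rn*, *Gda*, *Lcn2*, *Ren1* and *Kng1* complete the first 12, with differences from 2.90 to 3.67.

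The mRNA genes with the largest differences downwards were led by *Chga*, which encodes chromogranin A of the catecholamine granules, at 6.83, 6.70 and 3.42 in numbers 25, 31 and 28. *Cst8*, which encodes a cystatin, was at 8.15, 8.47 and 5.24, and *Nrep*, which encodes a protein of regenerating neurons, at 9.38, 9.64 and 6.64. In these genes numbers 25 and 31 lay within 0.32 of each other. *Gpc3*, which encodes a cell surface proteoglycan of embryonic growth, was at 7.76, 7.35 and 4.83, and *Postn*, which encodes the matrix protein periostin, at 7.62, 7.77 and 5.11. *Th*, the gene of tyrosine hydroxylase, was at 6.91, 7.01 and 4.45. *Col26a1*, *Prelp*, *Fosb*, *Tpsb2*, *Rps27rt* and *Fos* complete the first 12. *Rps27rt* is a near copy of a ribosomal protein gene, so its reads are uncertain.

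Genes of cholesterol synthesis and uptake were the list with the highest median difference. Of 27 members, 17 were called higher and none lower, against 1.58% and 1.13% of all genes. The P5 value lay above both P0/P2 libraries in 26 of 27 and below both in 1, against 36.8% and 40.8% of all genes. The median difference was 1.27, with 1.24 against number 25 alone and 1.33 against number 31 alone, while numbers 25 and 31 differed by a median of 0.12. The summed level of the 27 genes was 1495 FPKM (number 25), 1405 (number 31) and 3390 (number 28).

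Of the genes of uptake, *Scarb1* (chromosome 5 of GRCm38.p6 from 125277087 to 125341094) takes up cholesterol esters from HDL and was at 6.04 (number 25), 5.94 (number 31) and 8.48 (number 28). Its linear level was 63.9, 59.5 and 356 FPKM, and its difference of 2.49 was the largest of the list, with a gap between the P0/P2 libraries of 0.10. It was high in the P5 library alone, and the P0/P2 libraries lay close together.

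Of the mevalonate enzymes, *Pmvk*, which phosphorylates mevalonate phosphate, was at 4.62, 4.51 and 6.19 in numbers 25, 31 and 28, and *Fdps*, which makes farnesyl diphosphate, at 4.93, 4.82 and 6.40. *Mvk* and *Mvd* were called too, with differences of 1.06 and 1.52. *Hmgcs1*, which makes HMG-CoA, was higher by 1.09 on average but had a gap of 0.94 to the nearer library and was not called, and neither was *Idi1*, at 3.10, 2.97 and 3.63.

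Of the enzymes from squalene to cholesterol, *Lss*, lanosterol synthase (chromosome 10 from 76531565 to 76557139), was at 5.39 (number 25), 5.16 (number 31) and 7.44 (number 28). *Cyp51*, which removes a methyl group of lanosterol, was at 5.90, 5.78 and 7.59, and *Hsd17b7*, a sterol reductase, at 4.28, 4.22 and 6.09. *Sqle*, *Nsdhl*, *Sc5d* and *Dhcr7* were called with differences of 1.05 to 1.49. The members just inside the gap of 1 were *Mvk* (1.03) and *Dhcr7* (1.04), and those just outside were *Fdft1* (0.96), *Hmgcs1* (0.94) and *Msmo1* (0.90). *Acat2*, which makes acetoacetyl-CoA, was called with a difference of 1.34. *Stard4*, *Npc1* and *Lipe*, genes of cholesterol transport and ester cleavage, differed by 0.26, 0.55 and 0.50 and were not called. *Insig1*, whose protein retains the SREBP complex in the endoplasmic reticulum, was at 5.03, 4.92 and 6.25. *Srebf2*, the gene of SREBP2, was at 60.2, 62.2 and 81.0 FPKM and was not called. *Soat1*, which esterifies cholesterol for storage, was the only member below both P0/P2 libraries, at 6.70, 6.67 and 5.82. The fatty acid desaturase gene *Scd1* was at 5.90, 5.72 and 7.69, and *Apoe*, whose product carries lipids, was lower at P5, at 10.29, 10.03 and 8.92.

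Since these genes were higher together, their promoters (250 bases before to 50 after the start, RefSeq, GRCm38.p6) were searched on both strands for TCACNCCAC, a form of the sterol regulatory element. Of 27 members 17 had a promoter entry, and 1 of these held the motif, *Hmgcs1*, against 1.24% of 32851 promoters. The stretch around it is shown with the motif in capitals, 137 bases before the start on the plus strand (chr13:119690184-119690252). A match is a description of these letters only.

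Hmgcs1: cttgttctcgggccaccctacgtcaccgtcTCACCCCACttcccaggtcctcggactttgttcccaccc

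**Figure D2:**
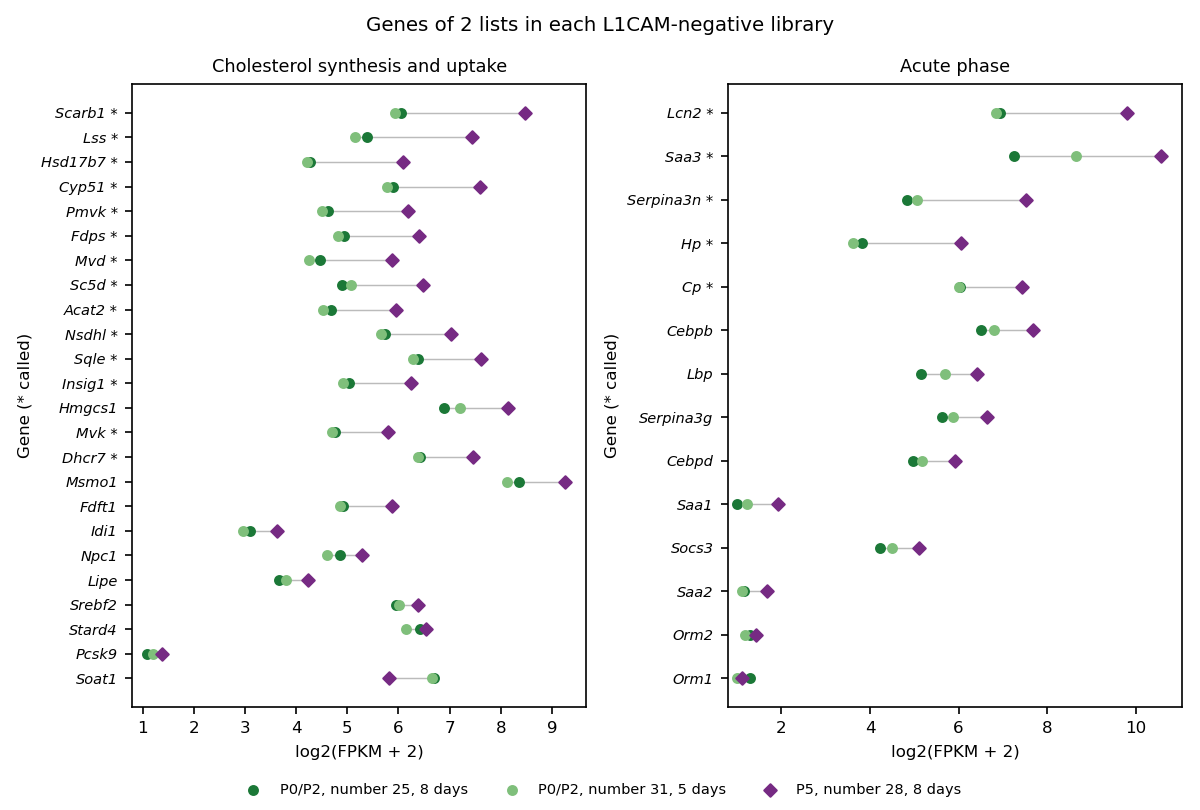
Level of 24 genes for cholesterol synthesis and uptake (left) and of the acute phase (right) in log2(FPKM + 2) on the x axis, with circles for the P0/P2 libraries, a diamond for the P5 library and an asterisk for called genes. The diamond lies to the right of both circles in 23 of the 24 genes shown on the left and in 13 of 14 on the right.

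The genes of steroid synthesis lay on both sides of the P0/P2 libraries. Of 12 members, 1 was called higher and none lower, against 1.58% and 1.13% of all genes, the median difference was −0.12, and the median gap between numbers 25 and 31 was 0.40. Without number 25 the median was 0.10 and 2 members were called higher, against 412 of all 18920 genes. Without number 31 there were 3 members called lower, against 348 of all genes. *Akr1b7* was the called member (above). Its near relative *Akr1b8* was at 6.08, 5.96 and 7.50 in numbers 25, 31 and 28, and the reads of the pair may be shared. *Hsd3b1*, an enzyme of every active steroid, was at 12.40, 11.97 and 11.29, and *Cyp11a1*, which cleaves the side chain of cholesterol, at 11.15, 10.39 and 9.89. Both were lowest in the P5 library, but their gaps to the nearer library were under 1. *Star*, which brings cholesterol into mitochondria, was at 11.24, 10.66 and 10.66, so that the P5 library and number 31 had the same value. *Cyp11b1*, the last enzyme of corticosterone synthesis, was at 10.11, 8.96 and 10.36, highest at P5 but within 0.25 of number 25. *Cyp21a1* has a near copy in the mouse genome and is uncertain. *Nr5a1*, the transcription factor of steroidogenic cells, was at 8.08, 8.13 and 7.95, and *Mrap*, the accessory protein of the ACTH receptor, was at 7.91, 7.69 and 8.82 and just missed the gap of 1 with 0.92.

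Of 7 steroid genes with a promoter entry, 1 (*Akr1b7*) held AAGGTCA, a form of the site for NR5A1, on either strand, against 4.72% of all promoters. It starts 248 bases before the start on the minus strand, so that the capitals in the stretch below (chr6:34412112-34412150, plus strand) are its reverse complement. It is shown for the steroid gene with the largest difference. The steroid list as a whole did not move together, and any action of NR5A1 at this site was not tested.

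Akr1b7: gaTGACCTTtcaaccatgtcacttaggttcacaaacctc

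Markers of the fetal cortex and X-zone moved in both directions. Of 5 members 1 was called higher and 1 lower, against 1.58% and 1.13% of all genes. *Akr1c18*, the progesterone-metabolizing enzyme that marks the X-zone (chromosome 13 from 4132615 to 4150646), was at 11.47 (number 25), 10.98 (number 31) and 9.94 (number 28) (2834, 2014 and 978 FPKM) and was called lower, with a gap of −1.04 to number 31. With centring on housekeeping genes the gap was −0.95 and the call was lost, and limma on the mRNA genes (below) did not pass it. *Pik3c2g*, another X-zone gene, was at 2.30, 2.18 and 1.38 and was not called. *Ren1*, the gene of renin, was at 2.81, 2.55 and 5.58 and was called higher, and in strains with a second renin gene its reads could be split. *Kcnk9*, a potassium channel gene of the outer cortex, was at 3.83, 3.70 and 1.60, and *Rspo3*, a WNT agonist made by the capsule, at 5.46, 5.37 and 4.27. Both were called lower. They were 2 of a list of 18 cortex regulators, with none called higher, against 1.13% and 1.58% of all genes. In that list 11 lay below both P0/P2 libraries and 6 above both, and the median difference was −0.15. Of the hedgehog genes, *Shh* was at 2.34, 1.48 and 1.08 and its target *Gli1* at 3.04, 2.22 and 1.36, both lowest at P5 but with gaps between the P0/P2 libraries of 0.86 and 0.82.

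Genes of chromaffin cells had the lowest median difference of the cell type lists. Of 23 members 14 were called lower and none higher, against 1.13% and 1.58% of all genes. The P5 value lay below both P0/P2 libraries in 21 and above both in 1, against 40.8% and 36.8% of all genes, and the median difference was −1.35. The median level at P5 was 32.2% of the mean FPKM of the P0/P2 libraries. In bulk RNA, fewer cells of a type and less RNA per cell cannot be told apart. Every L1CAM-negative library held RNA of chromaffin genes, although the labels call the cells non-adrenergic.

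Of the enzymes of catecholamine synthesis, *Th* (chromosome 7 from 142892779 to 142899995) was lower by 2.51 on the log2 scale, with the P0/P2 libraries 0.10 apart, and *Ddc*, the decarboxylase that makes dopamine, was at 22.3 FPKM (number 25), 22.6 (number 31) and 3.65 (number 28). *Dbh*, which makes noradrenaline, was at 5.66, 5.91 and 4.53 (log2), a smaller difference of −1.26. *Pnmt*, which makes adrenaline, was at 3.46, 2.34 and 1.11, with a gap to number 31 of 1.23 against 1.12 between numbers 25 and 31. All 4 enzymes were lowest in the P5 library. Of the vesicle and uptake transporters, *Slc18a1* was at 3.45, 3.64 and 2.36 and *Slc6a2* at 2.92, 2.85 and 1.37.

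Of the granule proteins, *Chga* (chromosome 12 from 102554941 to 102565027) was at 112, 102 and 8.69 FPKM in numbers 25, 31 and 28, and *Chgb* at 107, 139 and 24.4. *Scg2*, *Scg3* and *Scg5* differed by −0.73, −0.13 and −0.11 and were not called. The transcription factors *Phox2a*, *Hand2*, *Gata2*, *Isl1* and *Insm1* of the sympathoadrenal lineage were called lower, with differences of −1.93 to −1.39. *Gata3* differed by −0.75 and was not. Of the neuropeptide genes, *Npy* was the 1 member above both P0/P2 libraries, at 6.51 in number 25 and 7.21 in number 28, with number 31 lower than the P5 library by 0.20, *Cartpt* lay between them, at 40.5, 96.0 and 55.1 FPKM, and *Penk* was lowest at P5, at 50.2, 48.5 and 36.4 FPKM, and was not called.

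Of 15 neuronal genes 4 were called lower (*Snap25*, *Nefm*, *Uchl1* and *Elavl4*, with differences of −1.35 to −1.15) and 1 higher, the filament gene *Prph*, against 1.13% and 1.58% of all genes. The calls of *Snap25* and *Elavl4* were lost where the transcripts of a gene were summed. *Snap25*, a gene of vesicle fusion, was at 4.40, 4.47 and 3.08. Of the glial list 1 gene was called lower and none higher, against 1.13% and 1.58% of all genes. It was *Gfra3*, a receptor of GDNF family ligands, at 2.97, 2.97 and 1.38. Of the 15 glial genes, 10 lay above both P0/P2 libraries and 4 below both, against 36.8% and 40.8% of all genes. Among those above were *Sox10* (1.36, 1.45 and 1.92) and *Ngfr* (2.53, 2.80 and 3.48), whose gaps were under 1. Among those below were *S100b* (2.23, 1.82 and 1.36) and *Cnp* (5.36, 5.10 and 5.02), also with gaps under 1. In 3 of the 15 genes no library exceeded 1 FPKM.

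**Figure D3:**
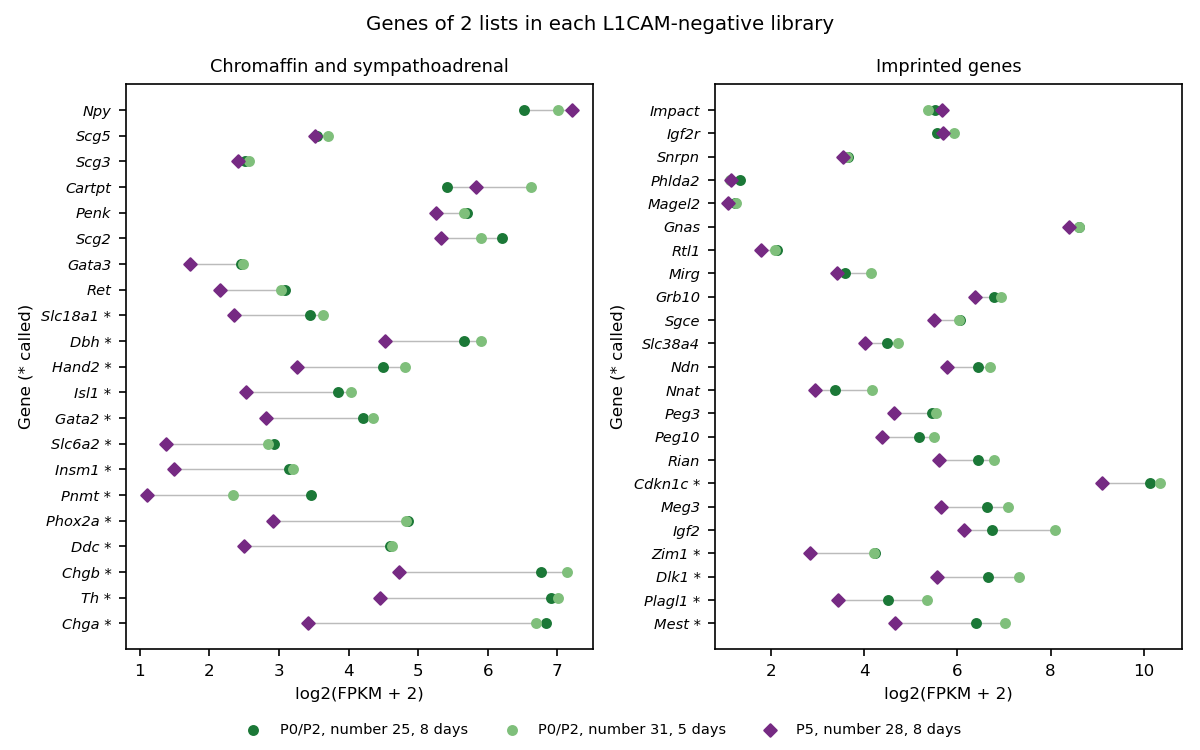
Level of 21 chromaffin and sympathoadrenal genes (left) and each imprinted gene (right) in log2(FPKM + 2) on the x axis, with circles for the P0/P2 libraries, a diamond for the P5 library and an asterisk for called genes. The diamond lies to the left of both circles in 19 of the 21 genes shown on the left and in 20 of 23 on the right.

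Cell cycle genes were low at P5. All 20 genes of mitosis and all 21 of DNA replication lay below both P0/P2 libraries, against 40.8% of all genes, with median differences of −0.80 and −0.62. Most gaps were under 1, so that 2 of 20 and 0 of 21 were called lower, against 1.13% of all genes. Without number 25 the counts were 9 and 3, against 410 of all 18920 genes. *Ube2c*, which targets cyclins for degradation, was at 5.23 (number 25), 5.52 (number 31) and 4.03 (number 28), and *Top2a*, the topoisomerase of dividing cells, at 5.11, 5.34 and 3.95. *Cdk1*, the kinase of mitotic entry, was at 4.87, 5.03 and 3.87, and the proliferation marker *Mki67* was lower by 1.00 on average, both with gaps just under 1. Of the replication genes, *Mcm6*, a subunit of the helicase, was at 24.8, 30.1 and 11.7 FPKM, *Rrm2*, a subunit of ribonucleotide reductase, at 22.5, 25.3 and 10.6 FPKM, and *Pcna*, the sliding clamp, at 41.4, 38.8 and 24.4 FPKM. The smallest differences were those of *Cenpe* in mitosis (−0.28) and *Ccne1* in replication (−0.26). Against number 25 alone, which had the same culture period, the medians were −0.79 and −0.65. The median difference of 12 housekeeping genes was −0.09 and that of 12 ribosomal protein genes −0.27.

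**Figure D4:**
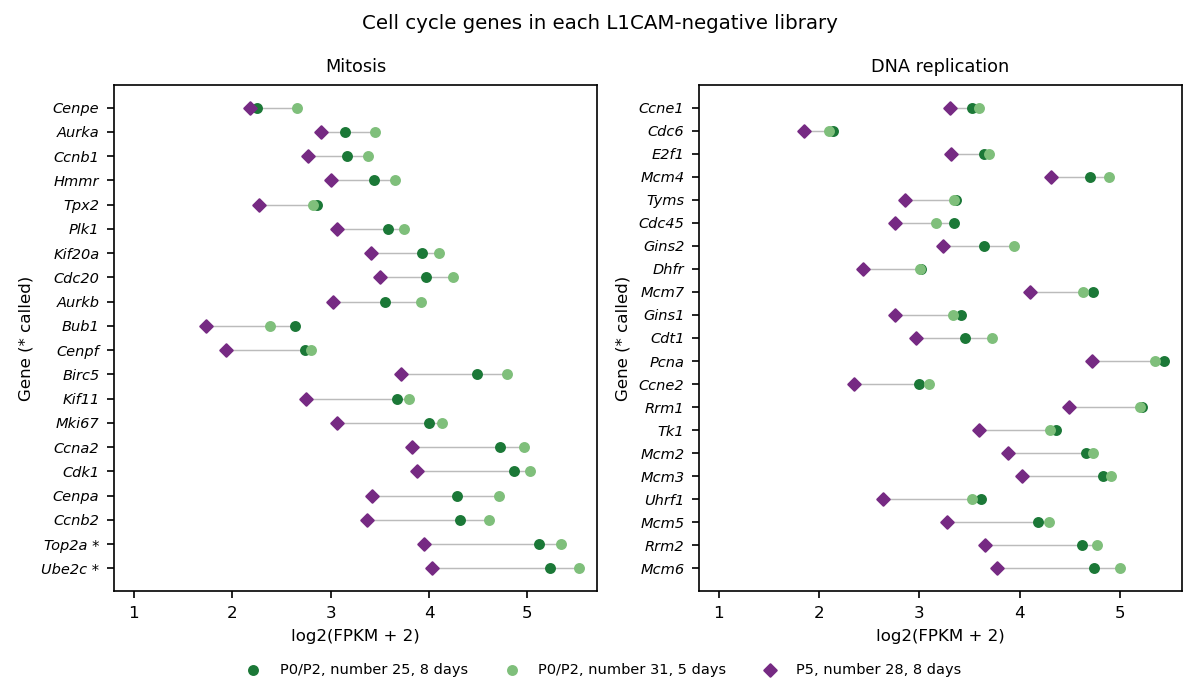
Level of each gene of mitosis (left) and DNA replication (right) in log2(FPKM + 2) on the x axis, with circles for the P0/P2 libraries, a diamond for the P5 library and an asterisk for called genes. The diamond lies to the left of both circles in all 41 genes, and 2 of them were called.

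Imprinted genes, many of which act in fetal growth, were mostly lower at P5. Of 23 genes compared, 5 were called lower and none higher, against 1.13% and 1.58% of all genes, 20 lay below both P0/P2 libraries, against 40.8%, and the median difference was −0.79. Without number 25, 10 were called lower, against 410 of all 18920 genes. Against number 25, which had the same culture period, the median difference was −0.56, and against number 31 it was −0.91. With centring on housekeeping genes *Cdkn1c*, *Dlk1* and *Plagl1* were no longer called. Number 31 was above number 25 by a median of 0.24. *Mest* (chromosome 6 from 30733506 to 30748466) was at 6.39 (number 25), 7.03 (number 31) and 4.67 (number 28). *Cdkn1c*, the cell cycle inhibitor, was at 10.14, 10.36 and 9.10. *Dlk1*, a Notch ligand-like protein, was at 6.65, 7.31 and 5.55, *Plagl1*, a transcription factor, at 4.50, 5.34 and 3.44, and *Zim1* at 4.24, 4.22 and 2.83. *Igf2*, the fetal growth factor, was at 6.74, 8.09 and 6.14 and was not called, since numbers 25 and 31 differed by 1.36. The non-coding RNAs *Meg3* (6.63, 7.09 and 5.65) and *Rian* (6.44, 6.78 and 5.60), next to *Dlk1* in the genome, were lowest at P5 with gaps under 1. *Impact* was the only gene above both, at 5.53, 5.37 and 5.67.

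Genes of the capsule and of fibroblasts split. Of 23 members 5 were called lower and 1 higher, against 1.13% and 1.58% of all genes. The median difference was −0.45, and −0.18 without number 25. *Postn* and *Prelp* were the lowest. *Prelp*, a leucine-rich matrix protein gene, was at 4.80 (number 25), 4.83 (number 31) and 2.08 (number 28). *Ogn*, *Dcn* and *Fmod* of the same protein family were called lower with differences of −1.92, −1.20 and −1.12, whereas *Lum* (−0.66), *Bgn* (−0.12) and *Omd* (−0.45) were not. *Lox*, which crosslinks collagen, was called higher, at 4.37, 4.54 and 5.80. *Mgp*, the gene of matrix Gla protein, was at 11.88, 11.11 and 11.52, so that the P5 library lay between the others. Of 16 collagen genes, 13 lay below both P0/P2 libraries and 1 above both, against 40.8% and 36.8% of all genes. The median difference was −0.44, and the median gap between numbers 25 and 31 was 0.43. *Col6a1* was the 1 called lower, against 1.13% of all genes, at 9.70, 9.78 and 8.51. Without number 25 there were 4, against 410 of all 18920 genes.

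Acute phase genes were high at P5. Of 14 members 5 were called higher and none lower, against 1.58% and 1.13% of all genes, 13 lay above both P0/P2 libraries, against 36.8%, and the median difference was 0.93. *Lcn2*, which encodes the siderophore-binding lipocalin 2 (chromosome 2 from 32384637 to 32387739), was at 6.93 (number 25), 6.84 (number 31) and 9.80 (number 28) (120, 112 and 890 FPKM). *Saa3*, a serum amyloid gene, was at 7.25, 8.65 and 10.57, with a gap of 1.40 between numbers 25 and 31. *Serpina3n*, a protease inhibitor gene, was at 4.83, 5.06 and 7.53, *Hp*, the gene of haptoglobin, at 3.83, 3.61 and 6.05, and *Cp*, ceruloplasmin, at 6.03, 6.01 and 7.42. The *Saa* and *Serpina3* genes have close relatives that can share reads. *Cebpb* and *Cebpd*, transcription factors of this response, differed by 1.04 and 0.85 with gaps under 1. *Mt2*, the metal-binding metallothionein 2, was at 6.83, 6.47 and 9.28.

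Of 23 chemokine genes, 4 were called higher and none lower, against 1.58% and 1.13% of all genes. The median difference was 0.25, smaller than the median gap of 0.32 between numbers 25 and 31. Number 31 was above number 25 by a median of 0.30. *Ccl11*, which attracts eosinophils, was at 4.51, 5.37 and 7.59, and *Ccl2*, which attracts monocytes, at 6.43, 6.80 and 8.25. *Ccl7* and *Cxcl5* were called too. Number 31 was between the other libraries for *Ccl11*, *Ccl2* and *Ccl7*. *Il1rn*, the antagonist of the interleukin 1 receptor, was at 1.93, 2.42 and 5.40. Next to *Ptgs2*, the prostaglandin genes *Ptgs1*, *Ptges* and *Pla2g4a* differed by 1.00, 0.99 and 1.01 with gaps just under 1, and *Ptgis*, prostacyclin synthase, was at 5.50, 5.02 and 4.10. Of 14 genes of prostaglandin synthesis and receptors, 1 was called higher and none lower, against 1.58% and 1.13% of all genes. In this list 6 lay above both P0/P2 libraries and 7 below both, and the median difference was −0.13.

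Macrophage markers were not high at P5. Of 17 macrophage genes none was called higher and 2 were called lower (*C1qc* and *Mrc1*), against 1.58% and 1.13% of all genes. Without number 25, 12 were called lower, against 410 of all 18920 genes. The median difference was −0.45 against number 25, which had the same culture period, and −1.20 against number 31. The P5 value lay below both P0/P2 libraries in 15, against 40.8% of all genes, and *Cd14* (3.94, 4.28 and 4.52) was the 1 above both. Their summed level was 245 FPKM (number 25), 572 (number 31) and 170 (number 28), so that number 31 was the highest. *Tyrobp* was at 4.41, 6.29 and 3.78 and *C1qa* at 3.49, 4.58 and 2.41. No defining marker was listed at 0, and *Cd163*, at 0.148, 0.197 and 0.190 FPKM, was under 1 FPKM in every library. The mast cell gene *Tpsb2* was at 3.84, 5.31 and 1.92.

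Of the EGF receptor ligands, *Ereg*, *Areg* and *Btc* were called higher at P5, and *Hbegf*, *Tgfa* and *Epgn* were not. EGF was part of the medium of all 3 cultures. *Ereg* (epiregulin) was at 1.62 (number 25), 1.76 (number 31) and 4.20 (number 28), and *Areg* (amphiregulin) at 1.54, 1.70 and 3.91. *Btc* (betacellulin) was called with a difference of 1.15, *Hbegf*, *Tgfa* and *Epgn* differed by 0.66, 0.20 and 0.17, and *Egfr* was at 4.36, 4.38 and 5.21. Of 26 genes of the FGF and EGF pathways, 4 were called higher and 1 lower, against 1.58% and 1.13% of all genes. The fourth called higher was *Fgf7*, a fibroblast growth factor for epithelia, at 2.13, 1.72 and 3.61. The receptor gene *Fgfr2* was called lower, at 5.11, 4.95 and 3.24. The feedback genes *Spry1*, *Spry2* and *Dusp6*, which FGF and EGF signals induce, differed by −0.08, −0.11 and 0.25.

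Of 28 genes of the TGF-beta, BMP and activin pathways, 5 were called higher and 1 lower (2 without either P0/P2 library), against 1.58% and 1.13% of all genes. *Grem1*, a secreted BMP antagonist, was at 2.68, 3.16 and 5.60. *Inhba* and *Inhbb*, the subunits of activins, were at 4.74, 4.91 and 6.16 and at 4.62, 4.67 and 6.23. *Ltbp2*, a matrix protein gene, was at 2.22, 2.29 and 4.65, and the stress-responsive *Gdf15* had a difference of 1.31. The P5 library was above both P0/P2 libraries in all 5. *Tgfbi*, a matrix protein gene, was called lower at 7.80, 7.72 and 6.33. In the IGF list, *Igfbp5* was called higher (6.99, 7.28 and 8.85) and *Igfbp3* lower (7.75, 7.90 and 6.31). These are 1 of 11 genes in each direction, against 1.58% and 1.13% of all genes.

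Immediate early genes, which respond within minutes to growth factors, were called in both directions, 4 of 22 lower and 2 higher, against 1.13% and 1.58% of all genes. *Fos* was at 7.27 (number 25), 7.86 (number 31) and 5.18 (number 28), *Fosb* at 5.27, 5.89 and 2.86, and *Egr1* at 7.67, 7.88 and 6.46. *Klf2* was the fourth called lower. *Fosl1* (1.31, 1.31 and 2.50) and *Ier3* (5.10, 4.73 and 6.48) were called higher, and *Junb* was at 7.30, 7.29 and 7.17. The P0/P2 libraries were both high for *Fos*, *Fosb* and *Egr1*.

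**Figure D5:**
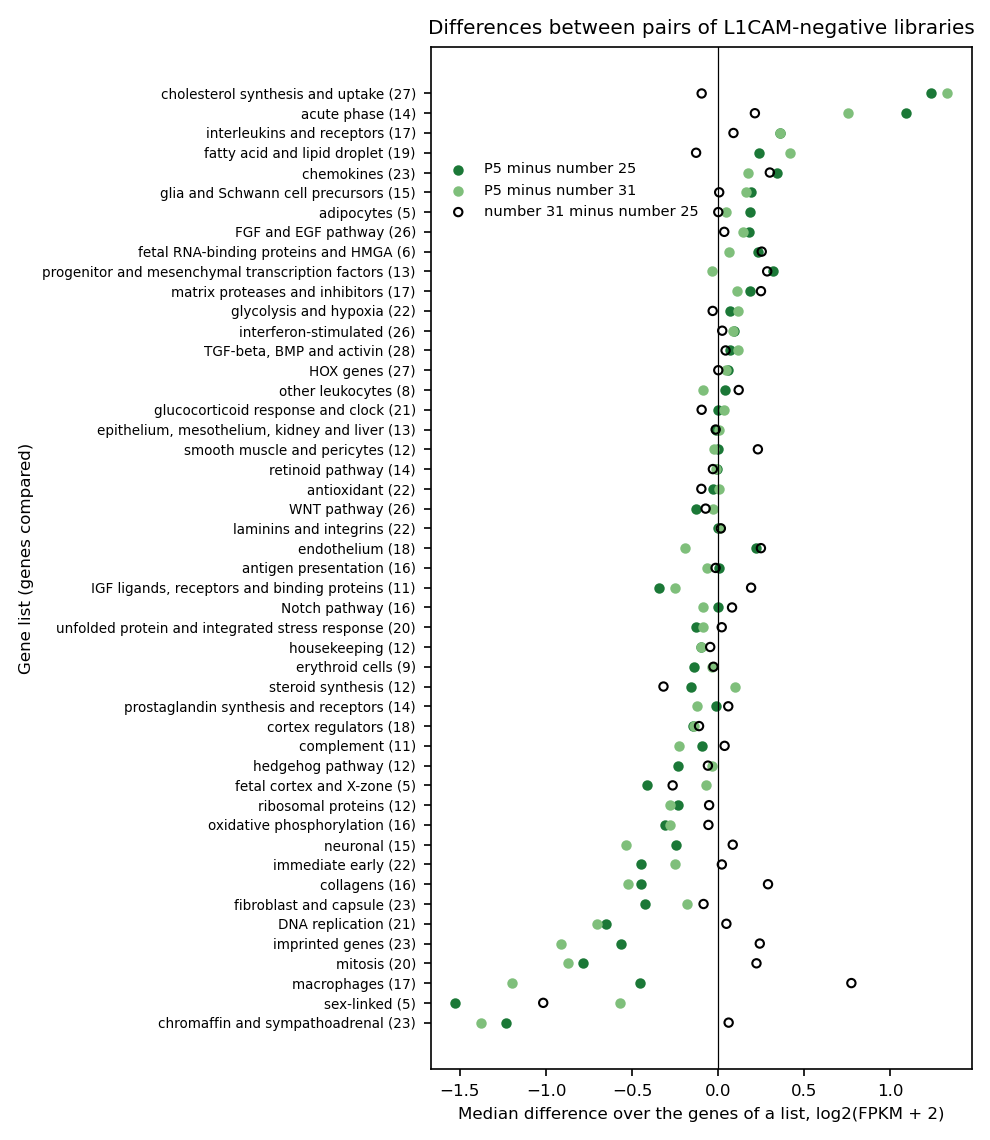
Median difference over the genes of each of 48 lists (x axis, log2(FPKM + 2)) between pairs of L1CAM-negative libraries, with the number of genes compared in brackets, filled circles for P5 minus number 25 and P5 minus number 31, and open circles for number 31 minus number 25. Cholesterol synthesis and uptake stands highest, near 1.24 and 1.33, and chromaffin genes stand lowest for number 31, with open circles near 0 for both lists. Macrophages and sex-linked genes have open circles far from 0.

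The libraries also differed in sex-linked genes. The Y-linked *Ddx3y* was at 5.75 (number 25), 4.50 (number 31) and 3.82 (number 28), and *Xist*, which is made from the inactive X chromosome, at 4.20, 6.35 and 6.32. The median level of 4 Y-linked genes at P5 was 31.7% of the mean FPKM of the P0/P2 libraries, and their part in the other differences was not tested.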

How the data were processed

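RNA of adrenal spheres was sequenced by the authors, aligned to mm10 with STAR 2.6.1a and turned into FPKM with Cufflinks. The deposited table holds log2 values for RefSeq transcripts after quantile normalization between samples with limma. As the lowest value is exactly 1, an offset of 2 was assumed, which no source states. Quantile normalization gives the libraries nearly the same distribution, so a shift of all genes cannot be seen. No depth is known, so no counting interval was computed.

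Of 32737 transcripts, 202 without a symbol were left out. Each of 23903 symbols was represented by its transcript of highest mean level in the 5 libraries. The 18920 genes above the lowest value in at least 1 of the 3 L1CAM-negative libraries were compared, 18872 of them with coordinates. P5 (number 28) was compared with numbers 25 and 31 by the size rule of the report, and no test was run as the main result. Software was limma 3.58.1 in R 4.3.3, and numpy 2.4.6, pandas 2.3.3 and matplotlib 3.10.9 in Python 3.11.15. The 48 gene lists with 807 genes, and the comparison itself, were chosen with earlier results of these data known. Genes named were drawn, not in full, from the 12 called with the largest difference in each direction, from each list the 3 called members with the largest difference in each direction and the 2 with the highest mean, and those the study names. As short RNAs filled the first, the same 12 among mRNA genes, other list members, and *Akr1b8* were chosen after their values were seen. Alternatives were other offsets, filters, transcripts per gene, scalings and gaps, leaving out a P0/P2 library, and limma with Benjamini-Hochberg adjustment. Immunostaining and proliferation assays and the L1CAM-positive libraries were not used here. Some single genes of the lists are counted but not reported here by name.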

Additional observations from a re-analysis of the deposited data

How the results depend on the processing

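No paired analysis was possible because the groups compared share no replicate number. All 115 called genes that the naming rule picks kept their direction under every alternative that gave them a value. The size rule puts P5 at least 1 beyond both P0/P2 libraries, so most alternatives could not reverse the direction. Of the 115, 99 kept their call with log2(FPKM + 5), 110 with centring on housekeeping genes and 59 with a gap of 2. The counts of genes called higher and lower (299 and 214) were 902 and 915 with log2(FPKM + 0.1), 339 lower with log2(FPKM + 1), 115 lower with log2(FPKM + 5), 687 and 709 with a gap of 0.58 (1.5-fold) and 89 and 34 with a gap of 2 (4-fold). Centring on housekeeping genes gave 368 and 162, a larger share of higher calls. Leaving out a P0/P2 library gave from 403 (without number 31) to 412 (without number 25) higher and from 348 (without number 31) to 410 (without number 25) lower. Limma on the 3 libraries, with 1 residual degree of freedom and the P5 library assumed to vary like the others, called 48 genes higher and 6 lower at an adjusted p under 0.05, all 54 of them non-coding. It called no mRNA gene. At an unadjusted p under 0.05 it counted 1848 and 2039. Fitted on 13147 mRNA genes of at least 1 FPKM, an alternative chosen after seeing the data, it called 427 higher and 385 lower, of which 222 and 154 were called by the size rule as well. Of the cholesterol list 19 were then higher and 1 lower, and of the chromaffin list 14 lower, of mitosis 8 of 20 and of DNA replication 9 of 21 lower. Among the called list members and leading mRNA genes, 13 did not pass this fit, *Akr1c18*, *Aldh1a1*, *Aldh1a3*, *Apoe*, *Bst2*, *C1qc*, *Ccl7*, *Cdkn1c*, *Dlk1*, *Plagl1*, *Pnmt*, *Saa3* and *Tpsb2*. Centring on housekeeping genes ended the calls of *Fmod*, *Mrc1* and *Slc18a1*, beside those named in the report, and summed transcripts that of *Cdkn1c*. Calls of named genes also depend on the assumed offset. With log2(FPKM + 5) the higher calls of *Aldh1a3*, *Btc*, *Flt1*, *Fosl1*, *Mvk* and *Prph* were lost. So were the lower calls of *C1qc*, *Cd55*, *Crabp1*, *Elavl4*, *Fmod*, *Gfra3*, *Isl1*, *Klf2*, *Mrc1*, *Nefm*, *Plagl1*, *Pnmt*, *Rspo3*, *Slc18a1* and *Slc6a2*. The calls in mitosis depend on the offset and the library, with 8 of 20 lower with log2(FPKM + 0.1), 7 with log2(FPKM + 1) and 9 without number 25. Of the imprinted genes 10 were lower without number 25, and 2 with centring on housekeeping genes. Of the cholesterol list 20 were higher with that centring and 2 with a gap of 2. The cause was not tested.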

Other observations

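Genes of retinoid metabolism differed in both directions at P5. *Aldh1a1*, which makes retinoic acid, was at 7.63 (number 25), 6.80 (number 31) and 5.38 (number 28), whereas *Aldh1a3*, with the same activity, was at 3.78, 4.37 and 5.45. *Stra6*, the receptor for retinol uptake, was at 3.29, 3.27 and 4.62, and *Crabp1*, which binds retinoic acid in the cell, at 3.33, 3.25 and 2.02. All 4 were called, 2 of 14 genes in each direction, against 1.58% higher and 1.13% lower of all genes.

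Of 26 WNT genes 1 was called higher (*Frzb*) and 1 lower (*Rspo3*), against 1.58% and 1.13% of all genes. *Frzb*, a secreted WNT antagonist, was at 5.60, 5.52 and 7.84 in numbers 25, 31 and 28. Of 18 endothelial genes 2 were called higher and none lower, against 1.58% and 1.13% of all genes, 5 lay above both P0/P2 libraries and 5 below both, and the median difference was −0.04. *Flt1*, a VEGF receptor, was at 1.32, 1.36 and 2.90, and *Emcn*, the gene of endomucin, at 7.20, 7.29 and 8.30. *Eng* (5.33, 5.39 and 4.92) and *Cdh5* (4.53, 4.31 and 4.10) were lowest at P5, and *Robo4* and *Kdr* differed by −0.46 and −0.28. *Rgs5*, a pericyte gene, was at 3.25, 4.89 and 6.36 and was not called, since numbers 25 and 31 differed by 1.64. Of 11 complement genes compared, 2 were called higher and 1 lower, against 1.58% and 1.13% of all genes. Higher were *C4b* (3.55, 3.63 and 4.95) and the inhibitor *Serping1* (6.60, 6.34 and 7.95). The regulator *Cd55* (4.23, 4.03 and 2.75) was lower. *Gpx3*, the secreted glutathione peroxidase, was at 6.56, 6.57 and 8.01. *Hmga2*, a chromatin protein of fetal tissue, was higher at P5, at 3.44, 3.68 and 4.99, while 20 of 23 imprinted genes lay lower. None of 27 HOX genes, 13 progenitor and mesenchymal genes or 16 genes of oxidative phosphorylation was called. Of all genes 1.58% were called higher and 1.13% lower, so a list this short without a call is near that share. Of the 16 genes of oxidative phosphorylation, 14 lay below both P0/P2 libraries, against 40.8% of all genes. Their median difference was −0.29.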
